A study of Mus musculus with 20 samples.

Results

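The response of pancreatic islets to 2 days of CRD was described here as far as it was shared by mice after 18 and after 39 weeks of HFD. All 20 samples of the series were used, 10 from mice moved to CRD and 10 from mice kept on HFD, and the effect of CRD was taken with weeks of HFD as a factor. The description concerns moderate changes seen at both ages, and leaves aside the cell cycle genes and circadian clock genes, which include the largest changes of the series. After those were set aside, 568 of 18311 tested genes met the limits given below.

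All mice were male and carried the leptin mutation Lep ob/ob on a B6.V background, so the HFD mice are obese, leptin-deficient mice and the series holds no lean or wild-type group. The 4 groups of 5 mice each were 18 weeks of HFD (young_HFD), 18 weeks of HFD followed by 2 days of CRD (young_CRD), 39 weeks of HFD (aged_HFD) and 39 weeks of HFD followed by 2 days of CRD (aged_CRD). Neither abbreviation of a diet is spelled out in the labels, which also give the age as the weeks of HFD, so age and diet duration cannot be told apart. Islets were freed with collagenase and picked by hand, and RNA of each mouse was hybridised to its own 1-colour Agilent array. The series contains no group of mice that stayed on another diet throughout.

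Beta cells, the most abundant cells of mouse islets, make insulin as a precursor that enters the endoplasmic reticulum (ER), is folded and oxidised there, passes through the Golgi and is stored in granules until glucose releases it. Proteins of that route carry a signal peptide and many receive sugar chains by N-glycosylation. A rise in the load of unfolded protein switches on ER chaperone genes through the factors XBP1 and ATF6, while receptors such as that of GLP-1, ion channels and a set of islet transcription factors tune how much insulin is released.

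Values are log2 of the deposited intensities, and a fold change is CRD minus HFD on that scale with its standard error (SE). The tests were limma fits over all tested genes with Benjamini-Hochberg adjustment, and a gene was called at an adjusted p below 0.05. The number of arrays limits the precision, and the median SE of the 568 genes was 0.14. Clustering on 1315 chemosensory receptor genes also divided the arrays into 3 array sets, which the labels do not mention. Correlations on those genes were 0.925 to 0.978 within sets and 0.847 to 0.916 between them. At 18 weeks, 4 HFD arrays and 1 CRD array belonged to set A, and 1 HFD array and 4 CRD arrays to set B. At 39 weeks, set A took 3 HFD and 4 CRD arrays, set B 1 HFD array, and the small set C 1 array of each diet. The sets thus lay almost along the diet at 18 weeks, and results are also given from a fit that blocks on the set (the block), from set A alone and from set B alone.

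The CRD main effect was called for 3619 genes (19.8% of those tested), 2115 higher (11.6%) and 1504 lower (8.21%). With the block 2549 were higher (13.9%) and 2770 lower (15.1%), so 58.4% of the calls were higher without the block and 47.9% with it. A call with a single sign in the main effect and at both ages was reached by 971 genes, 585 higher (3.19%) and 386 lower (2.11%). Small and medium changes made up most of the calls. Of the called genes 262 rose and 337 fell by under 0.5 on the log2 scale, 1275 and 946 by 0.5 to 1, 389 and 165 by 1 to 1.5, 104 and 47 by 1.5 to 2, and 85 and 9 by over 2. Of the last 94, 49 belonged to the lists of cell cycle and clock genes.

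Moderate genes were defined as those called in a single direction at both ages with a main effect of 0.5 to 2 in size (1.41-fold to 4-fold), a mean log2 intensity of at least 7 in both diets, and no place in the cell cycle or clock list. They numbered 318 higher (1.74% of the genes tested) and 250 lower (1.37%), with median changes of 1.12 and -0.87. As their fold changes chose them, these counts and sizes are a description. Just inside the upper limit lay Gucy2c (2.00), Camk2n1 (-1.99) and Smyd3 (1.98), and just outside it Gstm3 (-2.05), Alg5 (2.05) and Rnaseh2c (2.07). At the lower limit Acap3 (0.51), Anks1 (-0.51) and Dtnb (0.52) were inside, and Tlr9 (-0.50), Mrps11 (0.49) and Ldb1 (-0.48) outside.

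All 568 moderate genes were called in the same direction with the block, and all 568 had the same sign in set A alone and in set B alone. In set A, with 12 arrays, 549 of them were called for the main effect, and in set B 434 were called. The set B contrast rests on 1 HFD array at 18 weeks, young_HFD replicate 2, whose spread is taken from that of the remaining arrays, so set B counts here and below are given as values only. The call at both ages was reached in set A by 45 of the 568, with 1 array in the 18-week CRD arm. The CRD and HFD arrays did not overlap within either age for 420 of the 568, and for 875 of all genes tested (4.78%). Over all 20 arrays there was no overlap for 300 of the 568, 193 higher and 107 lower, and for 600 of all genes tested (3.28%). Of all genes tested 1822 were called in set A alone. The 568 were chosen on these same arrays, of which the array sets are parts. Their agreement in call and sign with the block and within the sets was largely fixed by that choice. Nothing is read from it or from the gap to all genes.

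The ages were also compared with separate fits that share no array. Of 2306 genes called at 18 weeks, 2222 (96.4%) had the same sign at 39 weeks and 882 were called there as well. Of 1842 genes called at 39 weeks, 1573 (85.4%) had the same sign at 18 weeks. No gene was called in opposite directions. Among all genes tested 48.7% had the same sign at both ages, and the fold changes correlated across genes with Pearson's r = 0.30. Genes are not independent replicates, and that correlation was 0.78 with the block, 0.67 in set A alone, and 0.22 after the cell cycle and clock lists were left out.

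**Figure D1:**
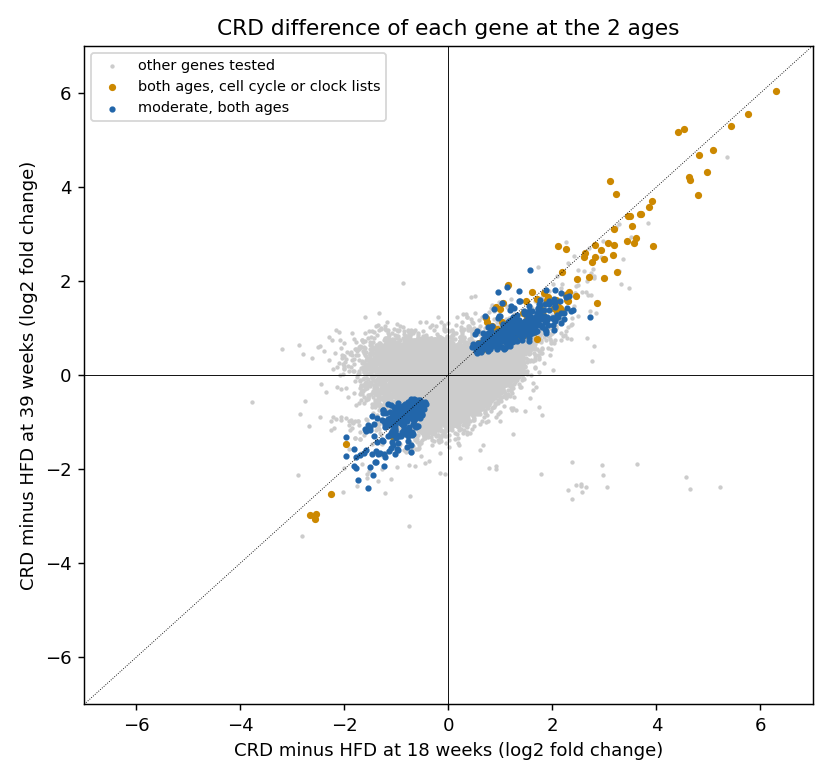
Each point is a gene, with its CRD minus HFD log2 fold change at 18 weeks on the horizontal axis and at 39 weeks on the vertical axis. Blue points are the 568 moderate genes, which lie along the diagonal in both directions, orange points are cell cycle and clock genes called at both ages, which reach to over 6, and grey points are the other genes tested.

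Within the moderate genes the change at the age with the smaller effect had a median of 0.77 of that at the other age. It was over 0.5 of it for 561 of the 568, and it was the 39-week change that was smaller for 375. These changes come from the fit without the block. As the sets lay almost along the diet at 18 weeks, a larger change there cannot be told apart from the array sets. The limma test of the difference between ages called 0 genes (0%), among all genes and with the block, while 4043 genes (22.1%) had an unadjusted p below 0.05, 327 (1.79%) with the block. Of the moderate genes 33 (5.81%) had such a p, and the rule of a call at both ages itself favours like effects. The count of 0 rested on 1 array. Without young_HFD replicate 2, the set B array of its group, 3876 genes were called, 33 of them moderate genes, and without young_HFD replicate 1 it was 18 genes. With the block and without young_HFD replicate 2 the count was again 0.

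Some of the most clearly raised moderate genes belong to the early secretory route. Dad1 encodes a subunit of the oligosaccharyltransferase, the enzyme that attaches sugar chains to new proteins in the ER. Its log2 intensity was 12.44, 13, 12.71, 12.39 and 11.76 on the young_HFD arrays and 14.34, 14.10, 14.41, 14.42 and 14.43 on the young_CRD arrays. On the aged_HFD arrays it was 12.20, 11.97, 12.38, 12.11 and 12.60, and on the aged_CRD arrays 14.12, 14.02, 13.91, 14.27 and 13.94. Every CRD array lay above every HFD array of both ages. The main effect was 1.84 ± 0.13 (SE; limma adjusted p = 2.16e-09), with 1.88 at 18 weeks and 1.80 at 39 weeks, and it was 1.77 with the block.

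Yif1b, a membrane protein of transport between ER and Golgi, ranged over 9.92 to 10.89 (median 10.30) on the 10 HFD arrays and 11.84 to 12.44 (median 12.11) on the 10 CRD arrays. It rose by 1.82 ± 0.13 (SE; limma adjusted p = 8.37e-10), 2.02 at 18 and 1.62 at 39 weeks. Copz2, a subunit of the COPI coat of vesicles that return from the Golgi to the ER, was at 7.84 to 8.91 (median 8.16) on HFD and 9.39 to 10.25 (median 9.78) after CRD. It rose by 1.64 ± 0.13 (SE). For neither gene did a CRD array fall within the range of the HFD arrays. Alg3, a mannosyltransferase that builds the sugar precursor of N-glycosylation, rose by 1.57 ± 0.13, from 8.72 to 9.49 (median 9.11) up to 10.00 to 11.14 (median 10.61). Vkorc1, the vitamin K epoxide reductase of the ER, rose by 1.68 ± 0.14, and Reep5, which shapes ER tubules, by 1.61 ± 0.14, again with no overlap of the 10 and 10 arrays.

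Genes without an evident part in secretion were among the most clearly raised as well. Ptcra, the pre-T-cell receptor alpha chain of thymocytes, was at 9.28, 9.23, 9.13, 9.06 and 9.09 in young_HFD and at 10.81, 10.41, 10.59, 10.60 and 10.64 in young_CRD. In aged_HFD it was at 9.29, 9.23, 9.28, 9.55 and 9.24 and in aged_CRD at 10.58, 10.65, 10.87, 10.82 and 10.51. The diets did not overlap, and the rise was 1.41 ± 0.09 (SE; limma adjusted p = 5.52e-10), 1.45 at 18 and 1.37 at 39 weeks. The T-cell marker Cd3e, at 0.53 ± 0.22, was not called (adjusted p = 0.0951).

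Guca1a, a calcium-binding activator of guanylate cyclase known from photoreceptors, went from 7.49 to 8.06 (median 7.76) on HFD to 8.69 to 9.48 (median 9.33) after CRD. It rose by 1.49 ± 0.11, and the groups did not overlap. Ttr, which encodes the thyroid hormone and retinol carrier transthyretin and is made by alpha cells among others, went from 11.85 to 12.87 (median 12.29) to 13.34 to 14.65 (median 14.02), a rise of 1.78 ± 0.15. Gcg (glucagon), the hormone of alpha cells, moved the other way, by -0.66 ± 0.19 (limma adjusted p = 0.0185). Gstm5, a glutathione transferase, rose by 1.31 ± 0.11, while its relative Gstm1 fell by 1.78 on the log2 scale. Members of that family are similar in sequence, and whether their probes also bind each other's RNA was not tested. The remaining members of the 15 most clearly raised moderate genes were Plekhd1os, a transcript from the strand opposite Plekhd1 (1.48), Tmem160 (1.72), Tmem176a (1.95), the dehydrogenase Dhrsx (1.23) and the WD-repeat protein Wdr90 (1.58).

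Among the falling moderate genes was Glp1r, whose product receives the gut signal GLP-1 and raises insulin release after a meal. Its level was 8.65, 8.92, 9.16, 9.36 and 9.15 on the young_HFD arrays and at 7.22, 7.11, 7.17, 7.27 and 7.38 on the young_CRD arrays. On the aged_HFD arrays it was at 8.39, 8.34, 8.50, 8.34 and 8.53, and on the aged_CRD arrays at 7.14, 6.85, 6.59, 6.72 and 6.87. All CRD arrays were lower than all HFD arrays. The main effect was -1.70 ± 0.11 (SE; limma adjusted p = 3.06e-10), with -1.82 at 18 and -1.58 at 39 weeks. In RNA of whole islets, fewer cells of a type and less RNA per cell cannot be told apart.

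Slc30a8, the zinc transporter of insulin granules, ranged over 10.32 to 11.80 (median 11.01) on HFD and 8.82 to 9.91 (median 9.23) after CRD. It fell by 1.87 on the log2 scale (SE 0.17; limma adjusted p = 8.51e-08), and its CRD and HFD arrays did not overlap. Tle3, a corepressor that works with islet transcription factors, was at 9.17 to 9.97 (median 9.80) against 6.63 to 8.33 (median 7.80), with a change of -1.87 ± 0.16. Rara, the retinoic acid receptor alpha, was at 8.70 to 9.33 (median 8.95) against 6.87 to 7.75 (median 7.20), a change of -1.77 ± 0.12. The ranges of the diets were apart for both.

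Insrr, a receptor tyrosine kinase related to the insulin receptor, had little spread within its groups. It was at 11.04, 11.05, 10.95, 10.58 and 11.09 in young_HFD and 9.84, 10.01, 9.59, 9.75 and 9.77 in young_CRD, and at 10.99, 11.05, 11.10, 11.08 and 11.29 in aged_HFD and 10.06, 10.01, 10.12, 10.07 and 9.98 in aged_CRD. With no overlap between the diets it fell by 1.10 on the log2 scale (SE 0.10; limma adjusted p = 3.4e-08), and by 0.69 where all its probes were averaged. Itpr2, a calcium release channel of the ER, changed by -1.50 ± 0.14, and Jph3, a junctophilin that ties the ER to the cell membrane, by -1.33 ± 0.13. Pard3, a cell polarity scaffold, changed by -1.65 ± 0.12 (a fall by 0.996 with all its probes averaged), Zdhhc2, a palmitoyltransferase, by -1.70 ± 0.15, and Nfix, a transcription factor of the nuclear factor I family, by -1.12 ± 0.11. The others among the 15 were Adam32 of the ADAM metalloprotease family (-1.84), the calcium-binding Cib3 (-1.58), Jade2, a scaffold of a histone acetyltransferase complex (-1.52), the beta-defensin Defb1 (-1.39) and the matrix protein tenascin-R, Tnr (-1.22).

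**Figure D2:**
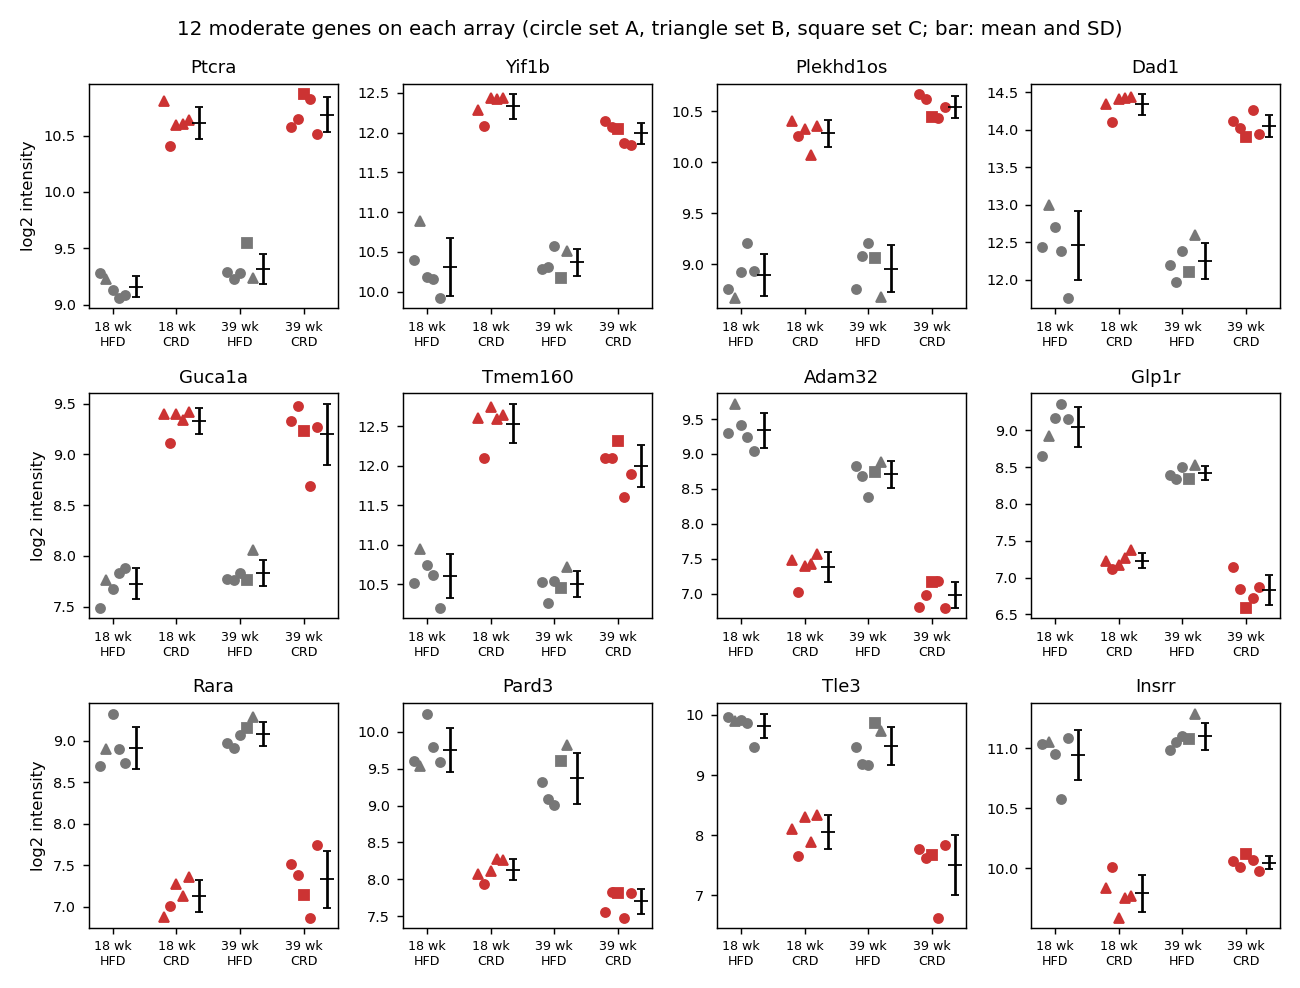
Log2 intensity of 12 moderate genes on each of the 20 arrays, grouped by weeks of HFD and diet, with HFD in grey and CRD in red and with array sets as symbols. Bars give the mean and SD of 5 arrays, each panel has its own scale, and in every panel the CRD arrays lie apart from the HFD arrays of both ages, as for Dad1 (at most 13 on HFD and at least 13.91 after CRD).

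These 15 raised and 15 lowered genes were picked as the moderate genes with the smallest p whose groups did not overlap within either age and that were called with the block. The raised ones changed by 1.23 to 1.95, 1.21 to 1.87 with the block, 1.16 to 1.87 in set A alone and 1.27 to 1.70 in set B alone. The lowered ones changed by -1.87 to -1.10, with -1.99 to -1.10 under the block, -1.95 to -0.98 in set A and -2.25 to -1.09 in set B. The unadjusted p of the difference between ages was 0.0963 or higher for all 30 in the limma fit without a block. It was below 0.05 for 1 of the 30 with the block and for 4 without young_HFD replicate 2.

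Of the 568 moderate genes 88 belonged to at least 1 of 32 pathway lists, 56 higher and 32 lower. The lists hold 1305 tested genes and are described by their counts, beside 11.6% higher and 8.21% lower among all genes tested. They were chosen with earlier results of these data known, so nothing is read from the gap to all genes. In 4 lists of the early secretory route, 86 of 145 genes rose (59.3%) and 3 fell, with a median change of 0.69. With the block 89 rose and 3 fell. Both ages were called for 38 of the risen genes. Counts within single array sets, with fewer arrays, were lower, and are given beside many of the lists. In set A alone 1002 of all 18311 genes tested were higher and 820 lower. For set B no such counts by direction are given, and nothing is read from the set B counts of the lists. Calls at both ages covered 3.19% of all genes tested higher and 2.11% lower.

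Entry into the ER came first. Of 24 genes of ER translocation and signal peptide cleavage 17 rose and 2 fell, with 6 and 0 in set A alone and 8 and 1 in set B alone. Its median change was 1.06 at 18 weeks and 0.48 at 39 weeks. Sec11c, a catalytic subunit of the signal peptidase, was at 11.49 to 13.56 (median 12.82) on HFD and 13.68 to 15.15 (median 14.13) after CRD, with no overlap. It rose by 1.74 ± 0.26 (SE; limma adjusted p = 3.86e-05). Spcs1, a further signal peptidase subunit, rose by 1.5 ± 0.21, and its lowest CRD array, at 12.55, lay just under its highest HFD array, at 12.56. Ssr4, of the translocon-associated complex, rose by 1.46 ± 0.19, and Srprb, of the receptor of the signal recognition particle, by 1.17 ± 0.17. The fallen members were Sec61a2, an isoform of the channel subunit, at -0.64 and Sec62 at -0.42. These last genes, as others below that are not among the 4 of a list with the smallest p, were named after their values were seen.

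Of 36 genes of ER folding and degradation 22 rose and 1 fell, 14 and 1 in set A and 16 and 1 in set B, and 14 rose at both ages. Sdf2l1, a partner of the chaperone BiP, Fkbp11, a prolyl isomerase, Derl3, of the degradation of misfolded proteins, and Creld2, a disulfide isomerase, changed by over 2 and so are not counted as moderate. Fkbp11 was at 9.34 to 10.73 (median 9.73) on HFD and 12.00 to 12.96 (median 12.31) after CRD, apart by more than 1 unit, and rose by 2.54 ± 0.16 (SE; limma adjusted p = 1.82e-10). Moderate members were Edem2 (1.61) and Derl1 (1.16) of the removal of misfolded glycoproteins, the co-chaperone Dnajb11 (1.49), the chaperones Hsp90b1 (1.44) and Calr (1.01), and the disulfide isomerases Pdia4 (1.15), P4hb (0.96) and Pdia6 (0.89). The 1 that fell was Ero1b, the beta-cell form of the ER oxidase, at -0.94, while the related Ero1a was at 0.79. Hspa5, the chaperone BiP itself, was called for the main effect (0.82; limma adjusted p = 0.0291) and was not called at both ages.

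In N-glycosylation 27 of 40 genes rose and 0 fell, 16 and 0 in set A and 14 and 0 in set B, with 11 called at both ages. Steps from the sugar precursor to its transfer and trimming were all represented. Alg5 (2.05 ± 0.19) and Dpm3 (1.23) supply activated sugars, Alg3 (1.57), Alg6 (1.28), Alg14 (1.27) and Alg12 (0.81) extend the precursor, Dad1 (1.84), Krtcap2 (1.21 ± 0.13), Ddost (1.03), Rpn1 (1.08) and Rpn2 (0.84) belong to the transferase, and Mogs (1.66) and Prkcsh (1.19) trim the attached chain. Krtcap2 was at 11.55 to 12.78 (median 12.25) on HFD and 13.30 to 13.60 (median 13.43) after CRD, without overlap.

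In the list of ER to Golgi vesicle coats and cargo receptors 20 of 45 rose and 0 fell, 11 and 0 within set A and 12 and 0 within set B. Kdelr3, which returns escaped ER proteins, rose by 2.74 ± 0.24, from 7.89 to 9.70 (median 8.86) up to 10.70 to 12.18 (median 11.46). Tmed3, a cargo receptor, rose by 1.52 ± 0.18 and Ergic3, of the compartment between ER and Golgi, by 0.81 ± 0.10 (limma adjusted p = 2.53e-06), from 10.56 to 11.09 to 11.40 to 11.77 with no overlap. The list median was 0.95 at 18 weeks and 0.14 at 39 weeks. In all 4 lists the medians were above 0 at both ages and lower at 39 weeks, a difference that was not tested. These medians, as those by age of the lists below, come from the fit without the block. As the sets lay almost along the diet at 18 weeks, a difference between ages in them cannot be told apart from the array sets.

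Acinar cells of the exocrine pancreas are rich in the same secretory genes. Of 24 acinar markers 1 was called, Bhlha15 (0.82 ± 0.14), a transcription factor of secretory cells, and the list median of the main effect was 0.05. The mean level of the 24 markers per array was 5.50 to 10.1 in young_HFD, 7.97 to 10.6 in young_CRD, 10.1 to 11.01 in aged_HFD and 7.92 to 10.3 in aged_CRD. The list median of the CRD change was 2.38 at 18 weeks and -2.05 at 39 weeks. The part of acinar RNA in the changes of the secretory genes was not tested.

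The promoters of the risen secretory genes were searched for the ER stress response element, a site of XBP1 and ATF6, spelled CCAAT and CCACG with 9 bases between them, on both strands. The windows were the RefSeq promoters of GRCm38.p6, from 250 bases before to 50 after the start of a gene, available for 14410 tested genes. The element was in 8 of 73 promoters of secretory genes called higher (11%), 3 of 49 of the other secretory genes (6.12%), 4 of 254 of the moderate higher genes (1.57%), 0 of 190 of the moderate lower genes and 24 of all 14410 (0.167%). A match describes letters and not a used site. The site in the windows of both Creld2 and Alg12 counts for each of these genes. As the lists were chosen with earlier results of these data known, nothing is read from the gap between these shares. The stretches around 6 of the sites are shown because they lie in genes named above, only some of which had a match, with the letters of the element in capitals and 20 bases on either side. They are the sites of Derl3 (chr10:75893222-75893280, minus strand), Creld2 (chr15:88819500-88819558, minus strand, in the window of the neighbouring gene Alg12 too), Calr (chr8:84847055-84847113, plus strand), Hsp90b1 (chr10:86705513-86705571, plus strand), Hspa5 (chr2:34772005-34772063, plus strand) and Pdia6 (chr12:17266471-17266529, plus strand).
Derl3: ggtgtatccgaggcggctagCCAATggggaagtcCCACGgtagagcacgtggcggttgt
Creld2: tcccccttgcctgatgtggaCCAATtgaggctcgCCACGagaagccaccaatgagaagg
Calr: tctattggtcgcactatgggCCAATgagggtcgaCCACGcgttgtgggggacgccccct
Hsp90b1: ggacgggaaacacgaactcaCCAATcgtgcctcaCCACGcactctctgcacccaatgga
Hspa5: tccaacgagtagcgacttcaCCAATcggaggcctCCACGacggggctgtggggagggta
Pdia6: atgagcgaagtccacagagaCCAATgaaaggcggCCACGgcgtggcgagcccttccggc

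Of the genes shown, Derl3 rose by 2.97 (limma adjusted p = 2.69e-10), Creld2 by 2.21 (adjusted p = 7.92e-08), Hsp90b1, which holds a second copy in its window, by 1.44, and Calr by 1.01. The rise was 0.89 for Pdia6 and 0.82 for Hspa5, so genes with the same element differed in the size of their change. The shorter XBP1 core TGACGTGG was in 0.958% of all promoters and 1.18% of those of moderate higher genes. It was in 2 of 73 secretory genes called higher (2.74%) and in 6 of 49 other secretory genes (12.2%), the reverse order of the longer element. The D-box TTATGTAA, a site of the clock output factors, was in 0.854% of all promoters, 0.787% of the moderate higher and 0 of 190 of the moderate lower genes. The core TGACGTGG shares its letters TGACGT with the cAMP response element TGACGTCA, which was in 2.88% of all promoters, 2.76% of the moderate higher and 4.21% of the moderate lower genes.

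Mitochondrial genes rose by smaller steps. Of 154 genes of the mitochondrial ribosome and oxidative phosphorylation 94 rose (61.0%) and 3 fell, while 12 of the risen genes were called at both ages. In the mitochondrial ribosome 47 of 76 rose and 0 fell, with a list median, in the fit without the block, of 0.51, 0.76 at 18 and 0.27 at 39 weeks. With the block it was again 47, but 11 in set A and 11 in set B alone. Mrpl17, of the large subunit, ranged over 8.02 to 8.52 (median 8.26) on HFD and 9.02 to 9.64 (median 9.39) after CRD, so the diets did not overlap. It rose by 1.15 ± 0.11 (SE; limma adjusted p = 8.26e-08), by 1.21 at 18 and 1.10 at 39 weeks. Mrps18a (0.79 ± 0.13), Mrpl54 (0.75 ± 0.12) and Mrps11 (0.49) were the other members called at both ages.

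In oxidative phosphorylation 47 of 78 genes rose and 3 fell, 19 and 3 in set A alone and 19 and 4 in set B alone. Ndufa4, a subunit of cytochrome oxidase, was at 7.98, 8.36, 8.10, 8.03 and 7.84 in young_HFD, 9.67, 9.26, 9.81, 9.73 and 9.74 in young_CRD, 7.89, 7.77, 8.14, 8.07 and 8.35 in aged_HFD and 9.27, 9.38, 9.12, 8.74 and 9.08 in aged_CRD. It rose on every CRD array above the HFD range, by 1.33 ± 0.13 (SE; limma adjusted p = 1.44e-07). Atp5g1, of the proton-conducting ring of ATP synthase, rose by 1.56 ± 0.16, and Uqcr11, of complex III, by 0.90 ± 0.10 with all CRD arrays at 11.46 or higher and all HFD arrays at 11.17 or lower. The 3 that fell belong to cytochrome oxidase or its assembly into larger units, Cox6a2 (-2.50 ± 0.26) and Cox7a1 (-1.09), which are the forms known from muscle, and Cox7a2l (-0.82). Cox6a2 was at 10.34 to 12.20 (median 10.97) on HFD and 7.13 to 9.68 (median 8.65) after CRD. The ubiquitous forms Cox6a1 (0.89) and Cox7a2 (0.89) were higher, so the paired forms of these subunits moved in opposite directions.

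Of 34 genes of nucleotide synthesis and one-carbon metabolism 14 rose and 1 fell, 5 and 0 in set A and 7 and 1 in set B. Srm, spermidine synthase, was at 8.70 to 9.70 (median 9.46) on HFD and 10.09 to 11.04 (median 10.76) after CRD and rose by 1.30 ± 0.13 (SE; limma adjusted p = 3.38e-07), by 1.32 at 18 and 1.28 at 39 weeks. Odc1, the entry enzyme of polyamine synthesis, rose by 1.49 ± 0.20, and the nucleoside diphosphate kinases Nme1 and Nme2 by 1.33 ± 0.17 and 1.27 ± 0.15. Nme1 and Nme2 are near copies of each other, and whether their probes share signal was not tested.

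Among 47 antioxidant and thiol genes 20 rose and 4 fell, 10 and 2 in set A and 10 and 5 in set B. Gpx3, a secreted glutathione peroxidase, was at 11.62 to 12.88 (median 11.91) on HFD and 12.61 to 14.17 (median 13.34) after CRD, with some overlap across ages and none within an age. It rose by 1.35 ± 0.16. Moderate members were also Gsto1 (1.64) and thioredoxin Txn1 (1.30). The extracellular superoxide dismutase Sod3 rose by 2.91 ± 0.17, beyond the moderate range, from at most 6.38 to at least 8.10. Those that fell included Gstm1 (-1.78 ± 0.20) and Gclm (-0.62), of glutathione synthesis.

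The proteasome had 12 of 35 genes higher and 0 lower in the main effect, 0 of them at both ages, 0 in set A alone and 5 in set B alone. Its median, in the fit without the block, was 0.89 at 18 and 0.09 at 39 weeks. Of 21 aminoacyl-tRNA synthetases 7 rose and 0 fell, with Hars at 1.17 ± 0.18 as the only 1 called at both ages, and of 58 ribosome biogenesis genes 12 rose and 2 fell, with Nop56 (0.92 ± 0.15) and Nhp2 (0.53 ± 0.11) called at both. Heat shock and cytosolic chaperones had 4 higher and 3 lower of 46, and nuclear transport 4 and 3 of 44, shares below those of all genes for higher calls.

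**Figure D3:**
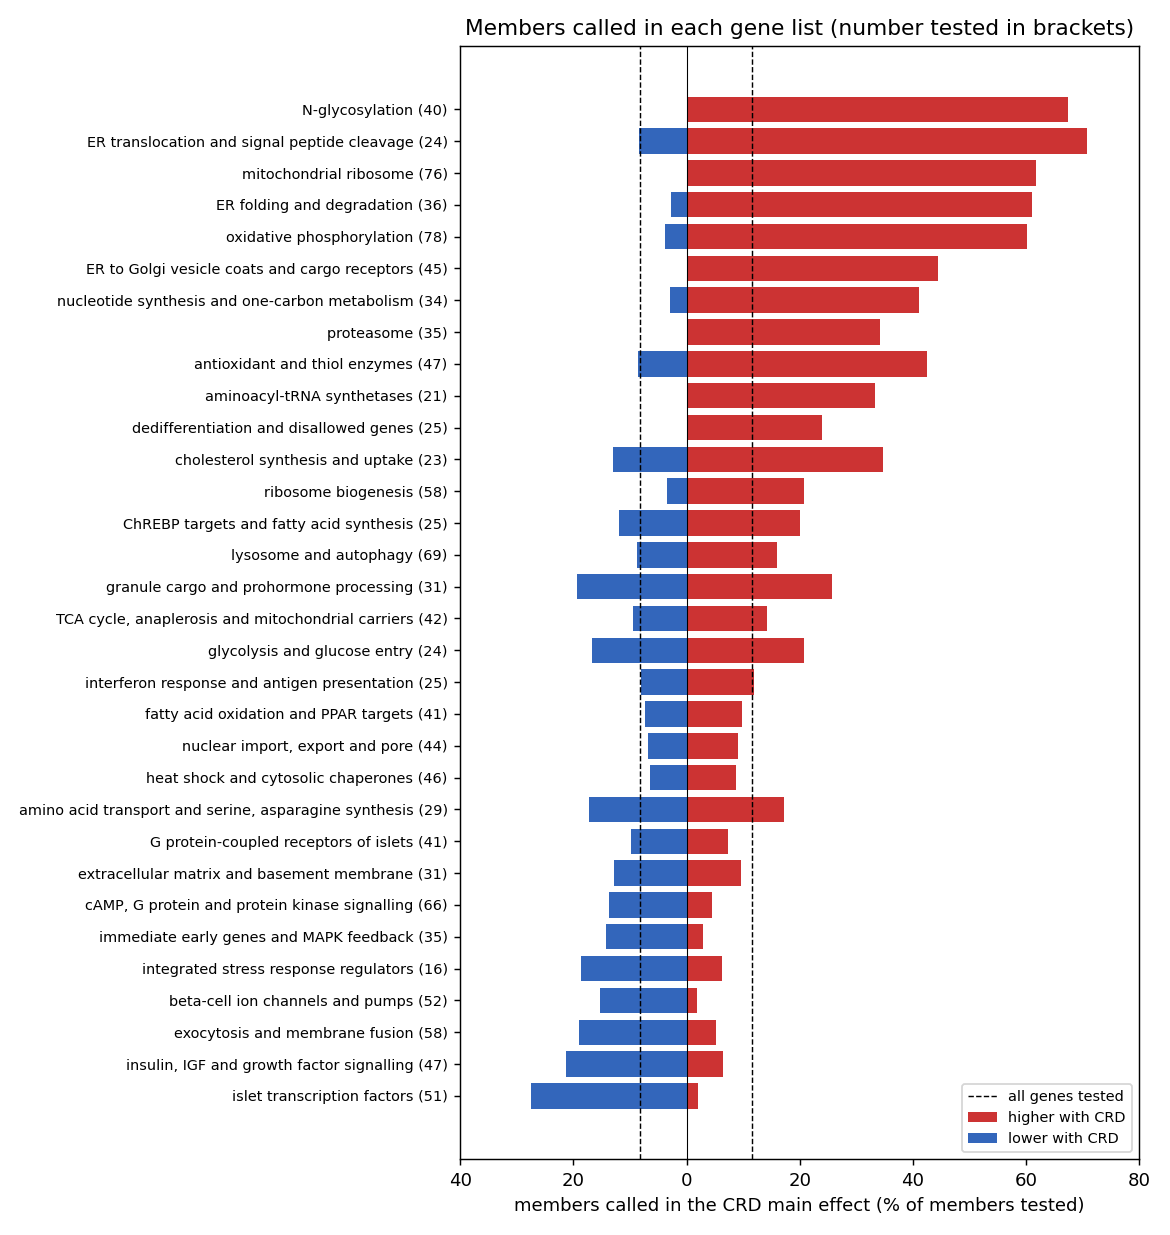
For each pathway list, the bars give the percent of tested members called higher (red, to the right) or lower (blue, to the left) in the CRD main effect, and dashed lines the same for all genes tested, 11.6% and 8.21%. The secretory and mitochondrial lists reach 44.4% to 70.8% higher, and islet transcription factors 27.5% lower with 1.96% higher. The lists were chosen with earlier results of these data known.

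Of 51 islet transcription factors 14 fell (27.5%), 1 rose (1.96%) and 36 were not called. Lower and higher counts were 8 and 0 in set A and 9 and 0 in set B, and 7 fell at both ages. Neurod1, a factor of endocrine differentiation and insulin gene expression, was at 8.66, 9.05, 9.56, 9.72 and 9.33 in young_HFD and 8.14, 7.98, 8.21, 8.27 and 8.30 in young_CRD. In aged_HFD it was at 8.83, 8.64, 8.81, 8.54 and 8.68 and in aged_CRD at 8.16, 7.86, 7.50, 7.38 and 8.53. All CRD arrays lay below all HFD arrays, the closest pair being 8.53 and 8.54. It fell by 0.95 on the log2 scale (SE 0.15; limma adjusted p = 0.0001). Tshz1 changed by -1.17 ± 0.14 and Zbtb20, a repressor active in mature beta cells, by -1.04 ± 0.15. Isl1 (-0.81) and Nkx6-1 (-0.72), factors of islet identity, were moderate as well, and their cofactor Ldb1 (-0.48) was just under the limit. The factors Pdx1 (-0.56) and Pax6 (-0.38) fell in the main effect and were not called at both ages. The 1 that rose was Etv5 (0.49).

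The list of 12 beta-cell markers overlaps with these and other lists. In it 7 fell and 0 rose, 6 within set A and 6 on the set B arrays. The other 5 were not called, 3 of the 12 had a change above 0, and with the block 1 was higher and 7 lower. The mean level of the 12 per array was 12.27 to 13.02 in young_HFD, 11.54 to 12.08 in young_CRD, 12.21 to 12.78 in aged_HFD and 11.56 to 11.86 in aged_CRD, so the diets did not overlap. That mean is weighed down by large falls of single members, as of Slc2a2 (-3.11), Slc30a8 (-1.87) and Glp1r (-1.70), and does not stand for every marker. Ins2 (insulin), at a mean of 17.9, and Iapp, at 17.2, lay at the top of the intensity scale. The share of beta cells was not measured, and its part in the falls was not tested. Ucn3, a hormone of mature beta cells that stimulates delta cells, was at 11.87 to 13.27 (median 12.66) on HFD and 10.67 to 11.95 (median 11.70) after CRD, with a change of -0.99 ± 0.17.

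Granule genes moved both ways, 8 of 31 higher and 6 lower, 5 and 4 in set A and 5 and 5 in set B. Ptprn, a membrane protein of the granule, was at 11.59 to 12.07 (median 11.83) on HFD and 12.61 to 13.33 (median 13.02) after CRD and rose by 1.21 ± 0.11 (SE; limma adjusted p = 8.26e-08). Nucb2, the precursor of nesfatin, rose by 1.62. Pcsk1n, an inhibitor of the prohormone convertase PC1, fell from 13.60 to 14.34 (median 14.02) to 12.64 to 13.42 (median 13.08), a change of -0.95 ± 0.12. Slc30a8 (-1.87), Rab37 (-1.58) and Sytl4 (-1.16), all of the granule or its docking, were lower.

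Of 58 genes of exocytosis and membrane fusion 11 fell and 3 rose, 5 and 0 in set A and 5 and 2 in set B. Those called at both ages were Syt14 (-0.77 ± 0.15) and Cplx2 (-0.64 ± 0.14), a complexin that clamps vesicle fusion. Rab3b (-0.87 ± 0.18) was called in the main effect alone, and Rab3d rose there (0.87 ± 0.17). With the block 18 of the list were lower and 3 higher.

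Signalling lists had more lower calls with the block, as all genes tested did (15.1% against 8.21%). Of 47 genes of insulin, IGF and growth factor signalling 10 fell and 3 rose, and 18 fell and 3 rose with the block. Lower at both ages were Rictor (-0.93 ± 0.15), the defining subunit of mTOR complex 2, and Tsc1 (-0.89 ± 0.12), a brake on mTOR complex 1. The transcription factors Foxo6 (-0.75 ± 0.14) and Foxo1 (-0.53) were lower at both ages too. So was Maob (-1.45 ± 0.21), which the list holds although it is a monoamine oxidase and not a signalling protein. Tsc1 was at 8.36 to 9.06 (median 8.67) on HFD and 7.28 to 8.28 (median 7.78) after CRD, without overlap. Of 66 genes of cAMP, G protein and protein kinase signalling 9 fell and 3 rose, 21 and 4 with the block. Prkca, protein kinase C alpha, was at 9.47 to 10.35 (median 9.77) against 8.83 to 9.39 (median 8.98) and changed by -0.74 ± 0.12, and Gnai2, an inhibitory G protein, by -0.96 ± 0.16. Crem, a cAMP-responsive transcription factor, rose by 1.41 ± 0.25 and was not called at 39 weeks (adjusted p = 0.0666).

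Of 52 ion channels and pumps 8 fell and 1 rose, 15 and 3 with the block. Itpr2, Cacna2d1 (-0.96 ± 0.14), a calcium channel subunit, and Atp2a2 (-1.0), the calcium pump of the ER, fell at both ages. The rise was that of Tmem37 (2.34 ± 0.18), a calcium channel gamma-like subunit, which was at 5.20 to 6.33 (median 5.65) on HFD and 6.96 to 8.79 (median 8.13) after CRD. Among 41 G protein-coupled receptors 4 fell and 3 rose, 10 and 4 with the block. Galr1, a galanin receptor, fell at both ages (-0.62 ± 0.13), as Glp1r did.

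Metabolic lists were mixed. Mlxipl, the glucose-sensing transcription factor ChREBP, was at 10.47 to 11.99 (median 11.55) on HFD and 8.99 to 10.41 (median 9.90) after CRD, and fell by 1.48 on the log2 scale (SE 0.20; limma adjusted p = 1.41e-05). Khk, fructokinase, changed by -1.28 ± 0.15, while Arrdc4, a target of ChREBP, rose by 1.86 ± 0.17 with a level under 7 on HFD. In that list of 25 genes 5 rose and 3 fell. In glycolysis and glucose entry 5 of 24 rose and 4 fell. Gapdh rose by 0.98 ± 0.14 and the neuronal enolase Eno2 fell by 0.70, both called at both ages. In the citric acid cycle list 6 of 42 rose and 4 fell, with Pcx, pyruvate carboxylase, at -1.18 ± 0.20. In fatty acid oxidation 4 of 41 rose and 3 fell, which turned to 4 and 7 with the block, with Hadh, a dehydrogenase that also restrains insulin release, at -1.33 ± 0.26. Cholesterol synthesis had 8 higher and 3 lower of 23, 8 and 7 with the block, and 0 higher at both ages.

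Amino acid transport and serine and asparagine synthesis had 5 higher and 5 lower of 29, with the glutamine synthetase Glul (-1.11 ± 0.20) lower at both ages. The integrated stress response had 1 higher and 3 lower of 16. Atf5, one of its transcription factors, was at 11.94 to 13.59 (median 13.31) on HFD and 10.64 to 11.73 (median 11.36) after CRD, with no overlap, and changed by -1.73 ± 0.20 (limma adjusted p = 1.85e-06). Ddit3, the factor CHOP, changed by -0.58 ± 0.13 and was not called at 18 weeks. Of 35 immediate early and MAPK feedback genes 5 fell and 1 rose, 10 and 2 with the block, and Dusp6, a phosphatase of the kinase ERK, rose at both ages (1.22 ± 0.17). Lysosome and autophagy had 11 higher and 6 lower of 69, 0 of them at both ages, and the balance turned with the block, to 12 and 16. Markers of dedifferentiation and genes normally shut off in beta cells had 6 higher and 0 lower of 25, with 1 called at both ages. Their list median, in the fit without the block, was 0.70 at 18 weeks and -0.06 at 39 weeks. Extracellular matrix had 3 higher and 4 lower of 31. Interferon response and antigen presentation had 3 higher and 2 lower of 25, which turned to 3 and 7 with the block.

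Lists of other cells were mixed. Duct markers had 5 of 8 higher and 0 lower, 2 in set A and 2 in set B, with 0 at both ages. They were Epcam (0.93 ± 0.17), Krt7 (0.86 ± 0.21), Car2 (0.79 ± 0.23), Krt8 (0.44 ± 0.11) and Krt18 (0.64), of which the keratins and Epcam are not restricted to duct cells. Krt19, Cftr and Mmp7, at mean levels of 3.59, 2.70 and 2.30, were under the limit of 4.83 for testing. The mean duct level per array was 8.70 to 9.44 in young_HFD, 9.30 to 9.80 in young_CRD, 8.96 to 9.38 in aged_HFD and 9.38 to 9.74 in aged_CRD. Of 17 macrophage and leukocyte markers 1 fell, C1qa (-0.95 ± 0.20), of 15 endothelial markers 1 fell, Emcn (-0.50 ± 0.15), and of 11 pericyte and fibroblast markers Rgs5 fell (-0.90 ± 0.18) and Col1a1 rose (1.13 ± 0.32). Delta-cell markers had 1 higher and 1 lower of 8, PP-cell markers 1 higher of 7, alpha-cell markers 1 higher and 1 lower of 7. With the block 3 markers were lower in each of the macrophage, endothelial, pericyte and alpha-cell lists, and 1 macrophage or leukocyte marker was higher. None of 4 adipocyte, 3 erythroid or 5 Schwann-cell and neural markers was called (0 each), while with the block 1 adipocyte marker was lower, and the part of any of these cells in the results was not tested.

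**Figure D4:**
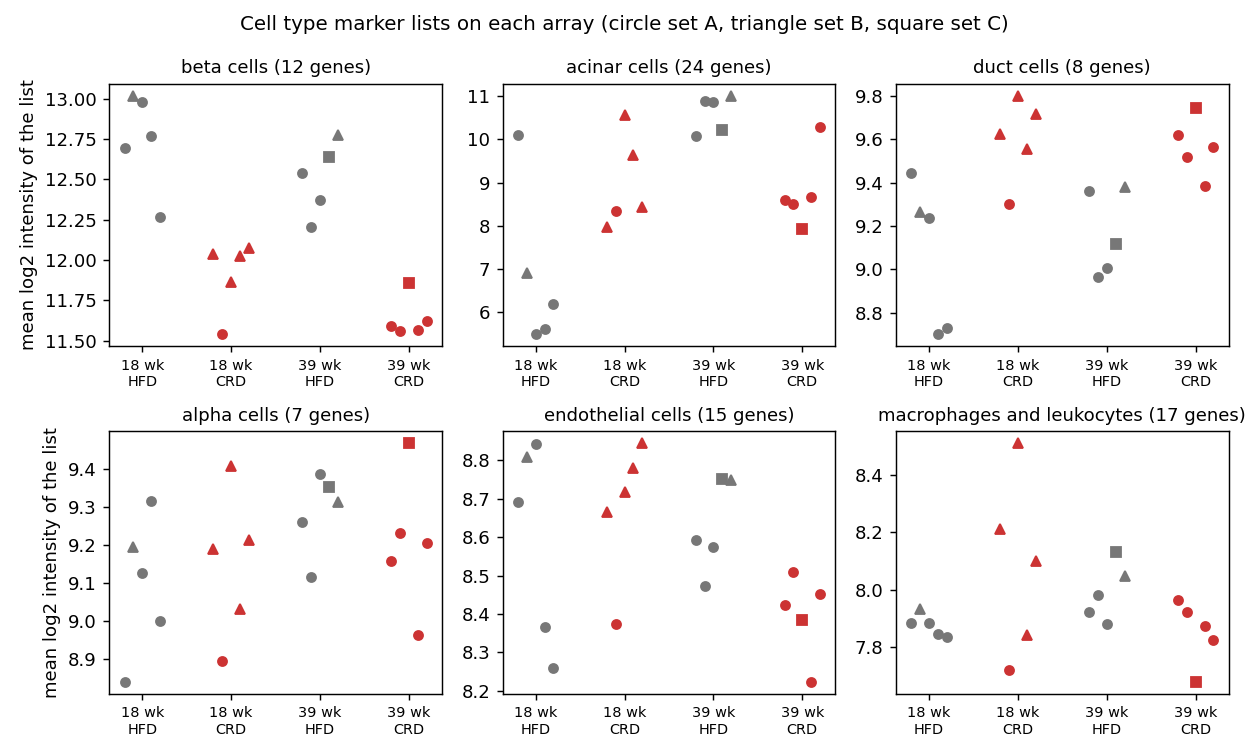
Mean log2 intensity of 6 lists of cell type markers on each array, by weeks of HFD and diet, with HFD in grey, CRD in red and array sets as symbols. Beta-cell markers lie at 12.21 or higher on HFD and at 12.08 or lower after CRD at both ages, while acinar markers were higher with CRD at 18 weeks and lower at 39 weeks in the group medians (6.18 and 8.44, then 10.9 and 8.60).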

How the data were processed

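Islet RNA of 20 mice, 5 per group per the series' design text, was measured on 1-colour Agilent arrays, and RNA with an integrity number over 8 was used per the labels' protocols. The values used were the deposited intensities of the series' value table on a linear scale, with Agilent Feature Extraction 11 named in the submitters' processing notes. Each column held the same sorted values, so the authors' intensities are quantile-normalized; no further step is given by the labels. They were taken as log2.

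Of 59448 probes, 30010 carried 1 gene symbol, 0 several and 29438 none. Of several probes of a gene, which 3324 of 26159 genes had, the one with the highest mean was kept. The lowest 30% of genes (mean log2 under 4.83) were left out, and 18311 were tested with limma 3.58.1 in R 4.3.3: diet plus weeks for the main effect, and 4 groups for the effects at each age and their difference, with Benjamini-Hochberg adjustment at 0.05. Array sets came from average-linkage clustering of 1315 chemosensory genes. Alternatives were the array set or replicate number as a block, single sets, array weights, other filters, an offset, probe means, centring and leaving out each array.

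The members and the gene lists were chosen with earlier results of these data known. Named genes were the 15 moderate genes higher and 15 lower with the smallest p, and up to 4 genes per list. Tested on simulated data with 18311 genes, the main effect fit called 40%, 88%, 100% and 100% of log2 changes of 0.5, 1, 1.5 and 2, and 6%, 60%, 88% and 100% with array set effects added. Blocking on the set in that last case gave 42%, 96%, 100% and 100%. Only 50 genes were changed at each size, while 3619 were called in the data, so these rates need not hold for the data. Replicates are mice, and the spread behind the p-values of the fit without the block is that between mice and between array sets. As the sets lay almost along the diet in the young groups, differences between sets can also enter the fold changes of that fit. Its p-values do not account for such a shift.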

Additional observations from a re-analysis of the deposited data

Results flagged for a closer look

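Among the 175 genes named by rule, 1 of the 5 mice of a group lay far from the other 4, by Dixon's criterion for 5 values (0.71), in 66 of 700 comparisons of a gene within a group. Chance marks about 1 in 20. The values below are log2 intensities of the array that stood apart, and no explanation was tested.

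Of these 66, 26 fell on young_CRD replicate 2, the only set A array of its group. That array lay below the others of its group for Guca1a (9.11), Tmem160 (12.1), Ttr (13.98), Reep5 (11.71), Zdhhc2 (8.66), Spcs1 (12.63), Sec11c (13.77), Sdf2l1 (12.4), Alg5 (10.37), Kdelr3 (10.82), Nop10 (9.77), Ndufa4 (9.26), Atp5g1 (12.3), Mlxipl (9.36), Txnip (13.48), Nme1 (13.48), Psma5 (9.29), Gnai2 (11.35), Cplx2 (10.13), Scarb2 (11.36), Nup43 (7.57), Epcam (10.2), Krt8 (11.2) and Fabp4 (6.98), and lay above them for Dnajc5 (11.72) and Th (10.48).

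A further 15 fell on aged_CRD replicate 4, of set A. That array lay below the others of its group for Alg3 (10), Dhrsx (7.91), Reep5 (11.04), Tle3 (6.63), Kars (7.7), Aldh18a1 (9.2), Uqcr11 (11.46), Me3 (5.75), Idh2 (7.88), Mlxipl (8.99), Acsl5 (8.38), Psmb5 (10.29), Rab3b (9.21), Nup98 (7.88) and Timp3 (6.95).

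The array of aged_CRD replicate 3 (set C) lay above the others of its group for Slc30a8 (9.45), Cox6a2 (9.68), Epcam (10.75) and Cd3e (7.2). That of aged_HFD replicate 5 (set B) lay above the others of its group for Guca1a (8.06), Ppargc1b (5.62) and Rbp4 (10.95). For its part, young_HFD replicate 5 (set A) lay below the others of its group for Tle3 (9.47), Uqcr11 (10.67) and Krt8 (10.58). The array of young_CRD replicate 3 (set B) lay below the others of its group for Cox6a2 (7.13) and Prph (4.95), and lay above them for Alas2 (9.14). That of young_HFD replicate 2 (set B) lay below the others of its group for Aqp3 (7.42), and lay above them for Psmb7 (9.87) and Alas2 (8.32). For its part, aged_HFD replicate 4 (set C) lay below the others of its group for Ffar2 (8.23), and lay above them for Ptcra (9.55). The array of aged_CRD replicate 5 (set A) lay above the others of its group for Egr1 (6.13) and Amy2b (10.41). That of young_CRD replicate 1 (set B) lay above the others of its group for Bst2 (7.76) and Plin1 (6.49). For its part, young_HFD replicate 4 (set A) lay below the others of its group for Insrr (10.58). The array of young_HFD replicate 3 (set A) lay above the others of its group for Tshz1 (11.11). That of young_CRD replicate 5 (set B) lay above the others of its group for Gstm1 (7.31).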

How the results depend on the processing

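All 30 of the most clearly changed moderate genes kept direction and call in each of the 31 settings that gave them a value, and none of the 175 named genes reversed (0). The 30 were picked on these same arrays, for small p, no overlap within either age and a call with the block. Keeping direction and call was thus largely fixed by that choice. Of the 30, Insrr and Pard3 moved by over 1.5 times, with the mean of all probes, where they fell by 0.69 and by 0.996. Counts moved more. Blocking on the array set, 1747 genes were called at both ages and 1072 were moderate, against 971 and 568, and with array weights the 3 counts of main effect, both ages and moderate genes were 6594, 2740 and 1661. Set A alone gave 1822, 147 and 45, and set B alone gave 1972 for the main effect and, without aged_CRD arrays, no counts for both ages. The causes of these moves were not tested, beyond the fewer arrays in single sets. Leaving out 1 array at a time gave 3158 to 4397 genes for the main effect, 712 to 1060 at both ages, 409 to 649 moderate genes and 0 to 3876 for the difference between ages, where 18 and 3876 came without young_HFD replicates 1 and 2. The filter on low values, an offset of 16, the mean of all probes and centring on the array median left every one of these 4 counts within 1.5 times.

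The labels do not say whether replicate numbers pair the mice, and pairing by the other numbers in the sample titles was not tested. With the replicate block 2102 genes were called for the main effect, 373 at both ages and 172 were moderate, and deviations of arrays with the same number correlated at -0.85 to 0.16. Among single genes, 27 of the 175 lost their call in set A alone, 47 in set B alone and 13 with the replicate block. Ins2 and Iapp lie at the top of the intensity scale, and genes under a mean log2 of 4.83 were not tested.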

Other observations

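Gene families read from symbol prefixes, looked at after their values were seen, were not evenly spread over the CRD main effect, for which 11.6% of all tested genes were higher and 8.21% lower. Of 316 Zfp genes, zinc finger proteins that are mostly DNA-binding, 12 were higher and 47 lower (14.9%), and of 41 Zbtb genes, a related group of transcription factors, 1 was higher and 10 lower (24.4%). Ppp genes, subunits of protein phosphatases and others, had 2 higher and 9 lower (12.2%) of 74. In the other direction, 10 of 47 Rpl genes of the cytosolic ribosome were higher and 0 lower, and 11 of 50 Eif genes of translation initiation were higher and 2 lower. Of 206 Tmem genes 46 were higher (22.3%) and 12 lower. These counts were not tested.

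Higher calls were more frequent among brighter genes. In 4 equal bins of mean level, from the lowest to the highest, 368, 456, 547 and 744 genes were higher and 295, 378, 425 and 406 were lower. Several digestive enzyme genes had the opposite sign at the ages, as Cela3b, an elastase, with 2.65 at 18 weeks and -2.38 at 39 weeks and Sycn with 2.97 and -2.14, and the limma adjusted p of that difference was 0.222 for both. Trib3, a gene of the stress response, was at 0.61 and -1.59 (adjusted p = 0.222).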
